A study of Populus tomentosa with 6 samples.

Results

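In the Chinese white poplar, Populus tomentosa, 219 genes took a large share of the RNA-seq reads in unheated leaves and kept at most 25% of it in heated leaves. They were chosen from the 27209 genes of the count table by their CPM (the count of a gene divided by the library total and multiplied by 1000000). A chosen gene averaged 200 CPM or more in control, with a mean in heat of at least 1 CPM and at most 25% of its control mean. Its highest heat library also lay below its lowest control library. The same heat and control values therefore chose the genes, and their size, direction and lack of overlap are given as a description. The genes are called the collapsing genes here, after the size of the drop in their share of reads. The 494 other genes with at least 200 CPM in control serve as the set to compare them with.

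The heat group was grown for 75 days, then warmed from the start of the light period to 37 °C over 0.5 h, held there for 2 h, warmed to 45 °C over 0.5 h and held for 5 h before sampling. The control group stayed at a day temperature of 25 °C and a night temperature of 20 °C, which were also the growth temperatures of the heat group. Both had 16 h of light, at about 350 µmol of photons per square metre and second, and 8 h of dark. Each group held 3 libraries of total leaf RNA, and library totals lay between 6466647 and 8530622 gene counts. The labels do not say whether each library was a different plant. They also do not give the age of the control plants or the hour at which control leaves were taken. Heat therefore cannot be told apart from plant age or hour of sampling. No mutant, transgene or strain difference between the groups is given in the labels.

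The messenger RNA pool of a mature leaf is uneven, and a small number of genes, many of them for photosynthesis in green plants, supply a large part of it. The level of a transcript is set by how fast it is made and how fast it is degraded, and plant cells under severe heat are known to change both. Heat shock transcription factors activate genes for chaperones, while many housekeeping and growth transcripts lose abundance. Because read counts are shares of a library, a gene can lose share either through fewer of its own transcripts or through more transcripts of other genes. In whole leaves, fewer cells of a type and less RNA per cell cannot be told apart. Neither the count table nor the annotation used here pairs the gene identifiers with names or functions, so no role is given to any collapsing gene, and all but 2 are described by rank, range and count. Gene lengths were not available either, so a higher CPM means more reads, not more transcript molecules, and ranks between genes are ranks of read share.

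As a set, the collapsing genes held 2.36%, 1.92% and 2.04% of all gene counts in heat libraries 1, 2 and 3, against 22.3%, 15.4% and 21.8% in control libraries 1, 2 and 3. Their mean share was 2.11% ± 0.225 in heat and 19.9% ± 3.88 in control (SD, n = 3 each), so the set kept 10.6% of its control share. The heat libraries lay close together, and control library 2 stood below both other control libraries. The 494 other abundant genes held nearly the same share of the control libraries as the collapsing genes did. Their share was 17.5% ± 0.236 in heat and 20.4% ± 0.383 in control (SD, n = 3 each), or 85.6% of the control share. In summed share control library 2 did not stand apart for these genes, with 20.3% of counts against 20.9% and 20.2% in control libraries 1 and 3. Gene by gene, control library 2 was the highest control library for 222 of the 494, against 114 for control library 1 and 158 for control library 3.

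**Figure D1:**
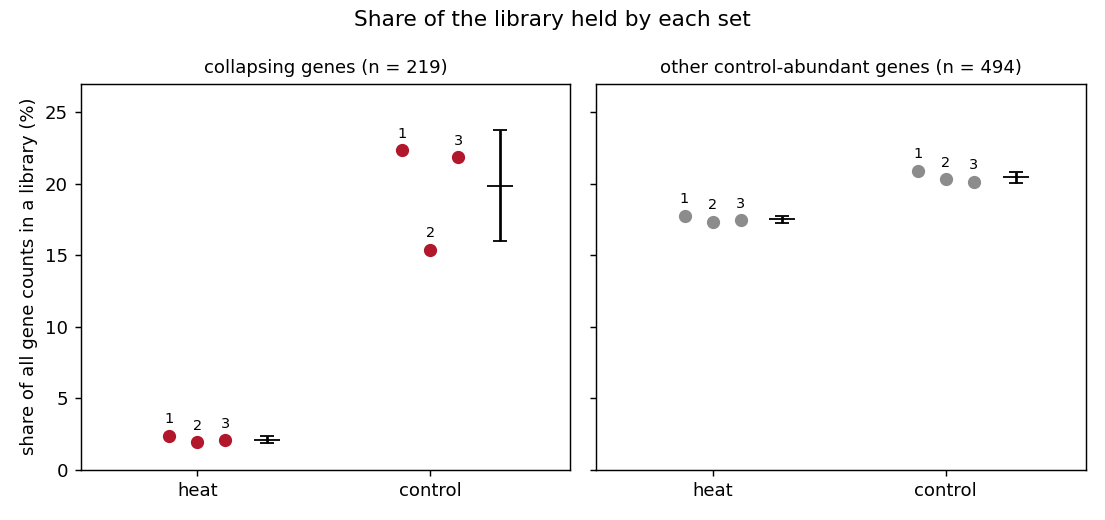
Share of all gene counts (%) held by the collapsing genes (left, n = 219) and by the other control-abundant genes (right, n = 494) in each heat and control library; points are libraries, marked by replicate number, and the bar is the mean with its SD (n = 3). The collapsing genes held 10.6% of their control share in heat, 2.11% of counts against 19.9%, and control library 2 stood at 15.4%.

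The collapsing genes were 30.7% of the 713 genes with at least 200 CPM in control. Their part was larger in the classes of higher control CPM. Control mean CPM sets these classes and also enters the rule, so the rise is given as a description only. They were 118 of the 482 genes between 200 and 400 CPM in control (24.5%), 47 of 146 between 400 and 800 CPM (32.2%), 30 of 51 between 800 and 1600 CPM (58.8%) and 24 of 34 at or above 1600 CPM (70.6%). The 24 genes of the top class alone held 0.978% ± 0.212 of counts in heat and 10.8% ± 2.74 in control (SD, n = 3 each). Of the 100 genes with the most reads in control, 57 were collapsing genes, and 2 collapsing genes were among the 100 highest in heat. The median collapsing gene stood at rank 4882 by mean heat CPM and at rank 271 by mean control CPM among all listed genes.

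**Figure D2:**
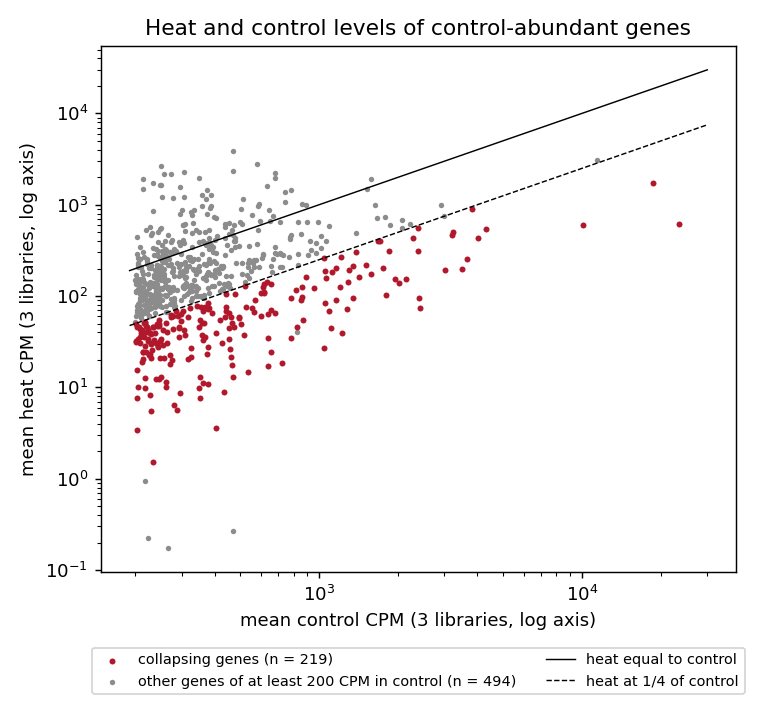
Mean heat CPM against mean control CPM (3 libraries each, log axes) for the 713 genes with at least 200 CPM in control; red points are the 219 collapsing genes and grey points the 494 others, the solid line is equality and the dashed line 25% of control. The red points lie below the dashed line by the rule that chose them, and they make up most of the points above 1600 CPM in control (24 of 34). Mean control CPM sets both the horizontal axis and the 25% limit.

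All 219 collapsing genes passed the filter on low counts and all 219 were called lower in heat in a model fitted to the whole table (edgeR quasi-likelihood test, adjusted p below 0.05). Of all 17458 genes tested, 28.7% were called lower. Since the same contrast chose the genes, nothing is read from that count. Every heat library lay below every control library for 36.7% of all tested genes, and 12.8% of them had a heat mean of at most 25% of control, both of which the rule fixes for the collapsing genes. The median fitted log2 change, with trimmed mean of M-values (TMM) scaling of the libraries, was -2.82 over the collapsing genes, -0.61 over the other abundant genes and -0.04 over all tested genes. Scaling by library totals or by upper quartiles put the median of all tested genes at -0.20 or -0.15, and the fitted changes given here are relative to TMM scaling. Of the 494 other abundant genes, 238 were called lower and 75 higher.

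POPTR_0004s09910 was the collapsing gene with the most reads and the first of all genes in control leaves. It had 594, 349 and 894 CPM in heat libraries 1, 2 and 3, against 28136, 13725 and 28484 CPM in control libraries 1, 2 and 3. The lowest control value was far above the highest heat value, and control library 2 stood well below control libraries 1 and 3. The mean was 612 ± 273 CPM in heat and 23449 ± 8422 CPM in control (SD, n = 3 each), 38.3-fold lower in heat. Its fitted log2 change was -5.10 with a standard error of 0.60. It was at rank 137 by mean heat CPM, so its transcript was still readily counted, with 2639 to 6936 reads per heat library.

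The collapsing gene with the next most reads in control had 2197, 793 and 2212 CPM in heat libraries 1, 2 and 3, against 20637, 10466 and 24903 CPM in control libraries 1, 2 and 3. It kept 9.29% of its control mean and was the collapsing gene with the highest level in heat, 1734 ± 815 CPM (SD, n = 3), at rank 32 of all genes there. Both it and POPTR_0004s09910 were lowest in library 2 of either group. The gene ranked 3 had 486, 1024 and 312 CPM in heat libraries 1, 2 and 3, against 11063, 9289 and 9850 CPM in control libraries 1, 2 and 3. Unlike the first and second genes it was highest in heat library 2, and its control libraries lay close together. The first 3 genes together took 0.295% ± 0.0685 of counts in heat and 5.22% ± 1.63 in control (SD, n = 3 each). Without them the collapsing genes still held 1.81% ± 0.189 of counts in heat and 14.6% ± 2.29 in control (SD, n = 3 each).

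Genes ranked 4 to 12 had means between 74.4 and 893 CPM in heat and between 2423 and 4316 CPM in control. Their drop was uneven, between 4.28-fold and 32.6-fold. The gene ranked 6 kept the most, with 865, 797 and 1017 CPM in heat libraries 1, 2 and 3, against 4020, 3258 and 4175 CPM in control libraries 1, 2 and 3. The gene ranked 12 kept the least, with 124, 37.4 and 61.7 CPM in heat libraries 1, 2 and 3, against 3226, 1213 and 2829 CPM in control libraries 1, 2 and 3. The gene ranked 11 had the steadiest control level among these, with 237, 195 and 143 CPM in heat libraries 1, 2 and 3, against 3184, 2919 and 2931 CPM in control libraries 1, 2 and 3. All 12 genes were lowest in control library 2 among the control libraries, and 9 of the 12 were lowest in heat library 2 among the heat libraries. These genes, apart from POPTR_0004s09910, were picked out after their values were seen.

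**Figure D3:**
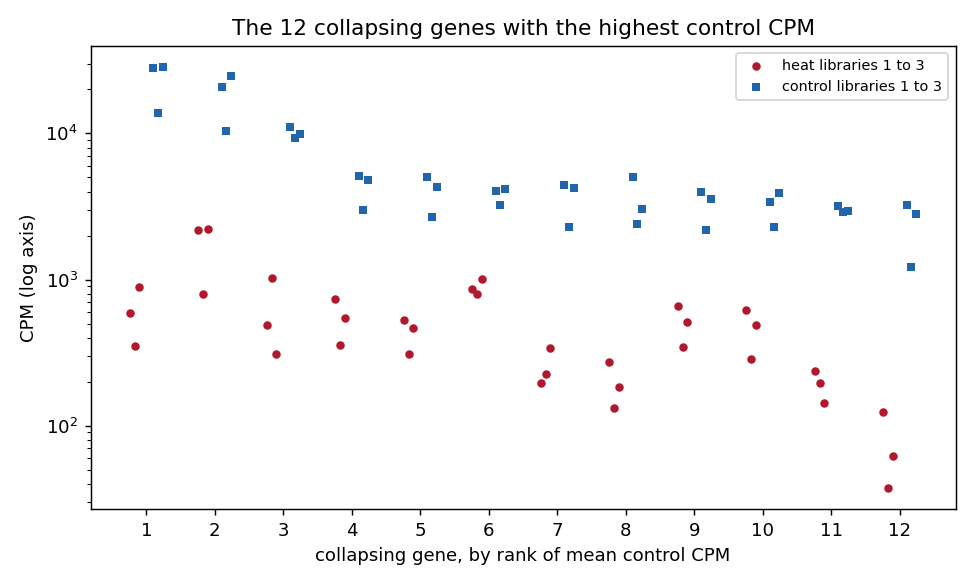
CPM (log axis) in each heat library (red circles) and control library (blue squares) for the 12 collapsing genes with the highest mean control CPM, by rank; within a gene, libraries 1 to 3 run left to right. Heat means span 74.4 to 1734 CPM and control means 2423 to 23449 CPM, and the middle blue square, control library 2, is the lowest control value in all 12 genes.

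Across the set, the mean level in heat was 0.658% to 24.9% of that in control, with a median of 12.7%, which is a 7.88-fold drop. Heat means ranged from 1.54 to 1734 CPM with a median of 46.5 CPM, and control means from 200.3 to 23449 CPM with a median of 367 CPM. In 81 genes the drop was at least 10-fold, in 33 at least 20-fold and in 4 at least 50-fold. The mild end was the fullest, with 111 genes keeping between 12.5% and 25% of their control mean and 62 keeping between 6.25% and 12.5%. A further 27 kept between 3.125% and 6.25%, and 19 kept at most 3.125%. Among the collapsing genes alone, depth of the drop differed little between classes of control CPM. The rule holds all of them at or below 25%, which limits how far the classes can differ. The values do not describe all abundant genes, of which collapsing genes were a larger part in the higher classes. The median kept level was 13.9% among genes between 200 and 400 CPM in control, 10.9% between 400 and 800 CPM, 11.4% between 800 and 1600 CPM and 10.1% at or above 1600 CPM, with overlapping quartile ranges (8.30% to 19.3% in the first class and 6.28% to 15.9% in the last).

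The gene with the lowest kept level was POPTR_0014s15800. It had 3.03, 1.45 and 0.129 CPM in heat libraries 1, 2 and 3, against 642, 52.4 and 6.92 CPM in control libraries 1, 2 and 3. Its control libraries differed by far more than its heat libraries, and control library 3 lay close to heat library 1. The mean was 1.54 ± 1.45 CPM in heat and 234 ± 355 CPM in control (SD, n = 3 each), 152-fold lower in heat, and the fitted log2 change was -7.15 with a standard error of 1.83. Control library 1 set this value. Without it the control mean was 29.7 CPM, the drop was 19.3-fold and the gene was no longer a collapsing gene by the rule. Its heat libraries held 22, 11 and 1 reads, so its heat level rests on few counts.

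The genes that followed in this order had control libraries that differed less. The gene with the next lowest kept level, 0.883%, had 4.0, 3.44 and 3.35 CPM in heat libraries 1, 2 and 3, against 421, 275 and 524 CPM in control libraries 1, 2 and 3. The next gene in this order, at 1.67%, had 1.24, 7.01 and 1.93 CPM in heat libraries 1, 2 and 3, against 234, 166 and 209 CPM in control libraries 1, 2 and 3. In both, each control library stood at least an order of magnitude above each heat library. Both were picked out after their values were seen.

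Low counts rarely limited these values. The median count of a collapsing gene in a heat library was 368 reads, 187 of the 219 genes had at least 100 reads in each heat library, and 8 had under 30 reads in some heat library. The lowest control count was 59 reads. The lowest control library exceeded the highest heat library by a median of 4.62 times, by at least 2 times in 211 genes and by at least 4 times in 133. In 4 genes this gap was under 1.5 times. The narrowest gap had 20.1, 27.2 and 60.3 CPM in heat libraries 1, 2 and 3, against 191, 66.2 and 388 CPM in control libraries 1, 2 and 3.

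The edges of the rule fell within a continuous range. Closest to the level limit, the lowest mean inside was 200.3 CPM in control with 32.3 CPM in heat, and the highest mean outside was 198.9 CPM in control with 31.3 CPM in heat. At the limit of 25%, the highest kept level inside was 24.9% and the lowest outside was 25.1%. Of the 224 abundant genes that kept at most 25%, 4 were left out for a heat mean under 1 CPM and 1 because its groups overlapped. That gene had 1.79, 51.0 and 68.7 CPM in heat libraries 1, 2 and 3, against 773, 52.6 and 1648 CPM in control libraries 1, 2 and 3, and control library 2 lay inside its heat range. The 4 genes under 1 CPM had heat means of 0.174 to 0.941 CPM and control means of 218 to 472 CPM.

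Most collapsing genes remained in view in heated leaves, which the rule partly sets by asking for a heat mean of at least 1 CPM. In heat, 206 of them had a mean of at least 10 CPM, 104 at least 50 CPM, 50 at least 100 CPM and 22 at least 200 CPM, the level that had made them abundant in control. The 7 at or above 500 CPM in heat were all among the 15 collapsing genes with the most reads in control. The rule also holds the heat mean of each gene below a fixed part of its own control mean. Genes low in control are therefore held low in heat, and part of any shared order is built in. Across the 219 genes, Pearson r of log2 CPM was 0.873 to 0.920 between 2 heat libraries, 0.824 to 0.903 between 2 control libraries and 0.647 to 0.756 between a heat and a control library. These are correlations across genes chosen by level, which share libraries and gene length, and they carry no p-value. The other abundant genes were not correlated in this way, so nothing about a kept order is read from the heat with control values.

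Replicates spread more for the collapsing genes than for the other abundant genes. The median coefficient of variation (CV, SD over mean of 3 libraries) was 28.6% in heat and 23.4% in control for collapsing genes, and 16.6% in heat and 16.0% in control for the other abundant genes. The CV in control was over 50% for 11 collapsing genes and under 10% for 31. Heat counts of the collapsing genes were also lower, and the part of low counts in the wider spread was not tested.

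Control library 2 was the lowest of the control libraries for 151 of the 219 collapsing genes (68.9%), control library 3 for 47 and control library 1 for 21. Among the 494 other abundant genes control library 2 was lowest for 28.9%, and among all tested genes for 21.6%. The median log2 ratio of control library 2 to the mean of control libraries 1 and 3 was -0.38 over collapsing genes, 0.08 over the other abundant genes and 0.20 over all tested genes. CPM are shares, so the lower share of the collapsing genes in control library 2 raises the CPM of other genes there. The positive medians are therefore not independent of the negative one. The median log2 ratio was lower in the classes with deeper drops, though not in strict order. Among genes that kept at most 3.125% of control it was -0.56, between 3.125% and 6.25% it was -0.60, between 6.25% and 12.5% it was -0.37, and between 12.5% and 25% it was -0.32. Outside the collapsing genes it was -0.04 for abundant genes that kept between 25% and 50%, and 0.28 for those above 200%. In 21 collapsing genes control library 2 held under 50% of the mean of control libraries 1 and 3.

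**Figure D4:**
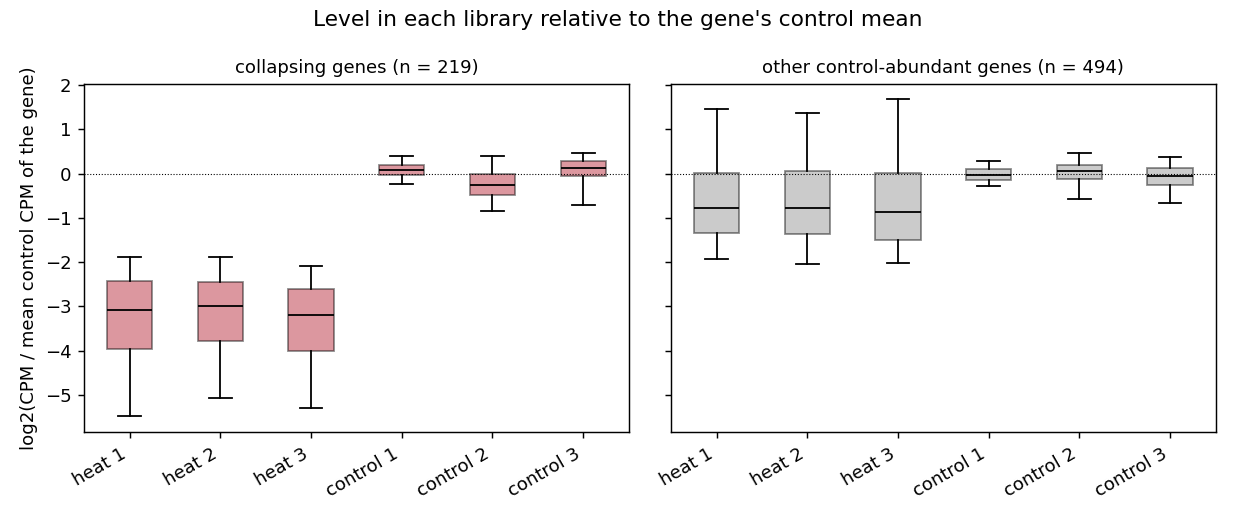
Log2 of CPM over the gene's own control mean in each library, for the collapsing genes (left) and the other control-abundant genes (right); boxes are quartiles over genes with the median line, whiskers the 5th and 95th percentiles. The heat boxes of the collapsing genes lie below -2 by the rule, and their control library 2 box lies below those of control libraries 1 and 3, with no such step on the right.

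The control libraries enter both the choice of the genes and these ratios. In a comparison added after the values were seen, genes were therefore also picked with control library 1 alone, as those with at least 200 CPM there and a heat mean of at least 1 CPM and at most 25% of that. Over these 232 genes the median log2 ratio of control library 2 to control library 3 was -0.36, against 0.12 over the 464 other genes of at least 200 CPM in control library 1. Picked with control library 3 alone, 255 genes had a median log2 ratio of control library 2 to control library 1 of -0.29, against 0.02 over the 437 others. Picked with control library 2 alone, 197 genes had a median log2 ratio of control library 3 to control library 1 of -0.09, against -0.06 over the 564 others. Control library 2 also had the lowest total, 6466647 counts. On counts thinned to that total in all libraries, the rule chose 218 genes, and control library 2 was lowest for 149 of them. CPM already divides by the total and thinning keeps the expected CPM, so nothing about the total is read from this count. The cause of the position of control library 2 was not tested. Without control library 2 the median kept level of the 219 genes was 12.1%, and the rule applied to the other 5 libraries chose 235 genes, of which 209 were among the 219.

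Among the heat libraries, heat library 3 was lowest for 101 collapsing genes, heat library 2 for 61 and heat library 1 for 57, while heat library 2 was highest for 109, heat library 1 for 81 and heat library 3 for 29. The median log2 ratio was 0.14 for heat library 2 over heat library 1 and -0.24 for heat library 3 over heat library 1. The collapsing genes with the most reads in control departed from this order. The first 10 held 0.716%, 0.462% and 0.697% of counts in heat libraries 1, 2 and 3, against 9.09%, 5.15% and 9.13% in control libraries 1, 2 and 3.

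To see how far the drop carries over to libraries that did not choose the genes, the rule was applied to 2 heat and 2 control libraries at a time, and the chosen genes were read in the left-out heat and control library. With each of the 9 pairs left out, 202 to 250 genes were chosen, of which 181 to 211 were collapsing genes. In the left-out pair, the chosen genes had a median of 9.83% to 15.6% of the control level, next to 11.8% to 13.1% in the libraries that chose them. The share of chosen genes that kept at most 25% in the left-out pair was 72.0% to 93.7%, against 4.97% to 10.3% of the other abundant genes. Those other genes had failed the same rule in the libraries that chose, so their low share is partly built in. At most 2 chosen genes per pair had as much in the left-out heat library as in the left-out control library. The median kept levels were highest with heat library 1 or 2 and control library 2 left out, at 15.6% and 15.5%, and lowest with heat library 3 and control library 3 left out, at 9.83%. The pairs share libraries, so no test was made over them. The left-out libraries also belong to the set that chose the collapsing genes. The labels do not say whether each library was a different plant, so carry-over between plants was not tested.

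**Figure D5:**
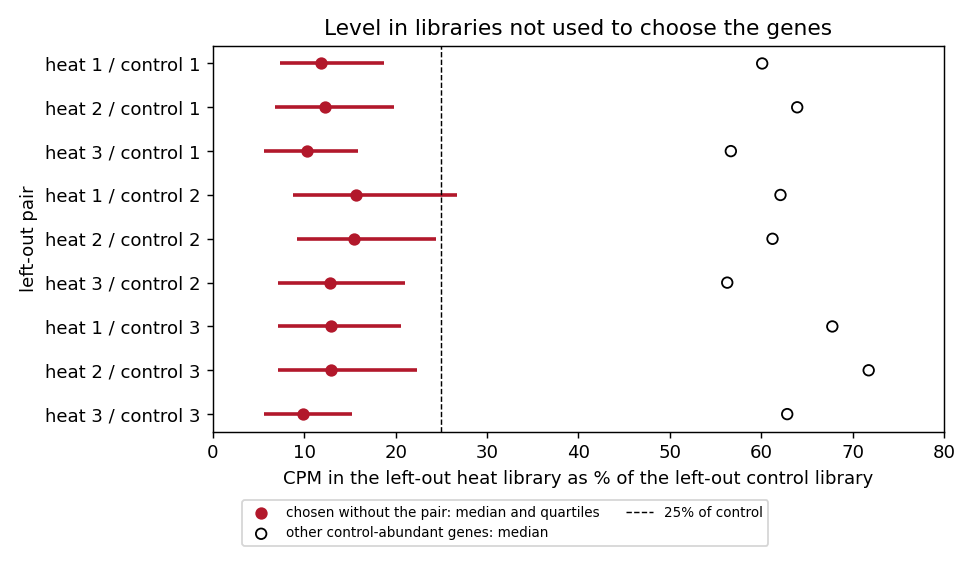
CPM in the left-out heat library as a percentage of that in the left-out control library, for each of the 9 pairs; red points and bars are the median and quartiles over genes chosen from the other 4 libraries, open circles the median of the other control-abundant genes, and the dashed line is 25%. Red medians lie between 9.83% and 15.6%, and open circles, for genes that failed the rule in the other 4 libraries, between 56.3% and 71.8%. All pairs come from the libraries that chose the collapsing genes, and carry-over between plants was not tested.

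The collapsing genes were spread over the identifiers. Identifiers carry a prefix number before the letter s, and all 219 had a prefix number from 1 to 19. The 1013 listed genes with higher prefix numbers held 7 genes of at least 200 CPM in control and 0 collapsing genes. Among prefix numbers 1 to 19 the lowest part of abundant genes that were collapsing genes was 3 of 15 (number 17) and the highest 14 of 28 (number 13). Pairs of collapsing genes next to each other in the list numbered 4, so that 8 of the 219 genes had a collapsing gene beside them. Collapsing genes were 0.805% of all listed genes. No such count over the other abundant genes is given, so nothing is read from the number of pairs. Members of a pair differed in level. One pair kept 2.14% and 5.80% of control, with 7.55 ± 3.43 and 26.5 ± 6.74 CPM in heat against 353 ± 56.2 and 457 ± 127.6 CPM in control (SD, n = 3 each). Another kept 7.22% and 17.1%, with 37.5 ± 20.0 and 314 ± 35.0 CPM in heat against 519 ± 423 and 1837 ± 1003 CPM in control (SD, n = 3 each). Near-identical copies could share reads in such pairs, and how reads that match several places were counted is not given in the sources used here.

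Genes listed beside a collapsing gene, which the rule did not choose, moved in both directions. Of 429 such neighbours with the same prefix number, 304 were abundant enough to be tested. Among these, 80 were called lower (26.3%, against 28.7% of all tested genes) and 83 higher (27.3%, against 28.1% of all tested genes), by the edgeR quasi-likelihood test with Benjamini-Hochberg adjustment. The median fitted log2 change of the neighbours was 0.04, against -0.04 over all tested genes. A drop to at most 25% of control was seen in 32 neighbours (10.5%), against 12.8% of all tested genes. Neighbours of the other abundant genes, limited to genes under 200 CPM in control, were called lower in 24.4% of 672, against 26.2% of 294 such neighbours of collapsing genes.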

How the data were processed

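The authors deposited one table of whole-number read counts per gene, with a column per library and no scaling; 3 heat and 3 control libraries were matched to it by sample title. Tools listed in the submitters' processing notes are TopHat2 2.0.12, HTSeq 0.6.1 and CASAVA 1.8, with no roles. Genome build, annotation, strand setting and handling of multiply matching reads are not stated there. None of the 27209 identifiers matched the 60139 genes of the annotation used (PTv2), a count of 0, so the planned gene lists by name could not be applied.

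CPM used library totals. The model was edgeR 4.0.16 in R 4.3.3 (filterByExpr, TMM, robust quasi-likelihood, group as the only term, Benjamini-Hochberg over 17458 genes, threshold 0.05), with standard errors taken as the log2 change over the root of F. The model was run on simulated counts as a check of the code. Their spread was the same for all genes and was not fitted to these data, so the calls made here were not tested by it. If libraries of a group were not separate plants, the p-values cover technical spread only. The genes, rules and alternatives were chosen with earlier results of these data known. Named identifiers were the gene with the highest control CPM and the one with the lowest kept level. Alternatives used DESeq2 1.42.0, limma 3.58.1, other scalings and filters, thinning, a replicate block and leaving out libraries.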

Additional observations from a re-analysis of the deposited data

How the results depend on the processing

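The number of collapsing genes stayed between 183 and 235 under TMM, DESeq2 or upper quartile scaling of the CPM (185, 183 and 212 genes, all of them among the 219), thinning, dropping the overlap or lower heat limit, and leaving out a library (207 to 235). It followed the limits themselves, with 426 genes at 100 CPM, 101 at 400 CPM, 108 at a heat level of at most 12.5% and 420 at a heat level of at most 50%. The mean heat share was 1.81% with TMM factors and 1.82% with DESeq2 size factors in the rule, and 2.01% to 2.52% with a library left out. The mean control share was 17.2% with TMM factors and 17.1% with DESeq2 size factors in the rule. With a library left out it was 18.2% to 24.1%, the highest without control library 2. The median fitted log2 change was -2.98 with library totals and -2.94 to -2.75 with a library left out. The held-out medians furthest from their middle value of 12.8% were 9.83%, 10.3%, 15.5% and 15.6%. Counting neighbours over 2 places on each side gave 170 called lower of 589 tested (28.9%). In each of the 15 alternative fits 217 to 219 collapsing genes were called lower and 0 had a positive fold. Of all genes tested in these fits, 22.2% to 31.7% were called lower. The same contrast chose the collapsing genes, so nothing is read from their counts. POPTR_0014s15800 missed the threshold in the edgeR fit of unfiltered counts (adjusted p = 0.0520) and with limma (adjusted p = 0.210), over a range of 0.000123 to 0.210 in 15 alternatives. Same-numbered libraries are not said to be paired, and their deviations from the group means correlated at 0.0487, 0.0998 and 0.178. With the replicate block all 219 genes were called lower, beside 27.9% of all tested genes, and the block changed no call among the 219. Low heat counts limit the 8 genes with under 30 reads in a heat library.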
